A study of Homo sapiens with 8 samples.

Results

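Receptor tyrosine kinases that lenvatinib does not mainly target were followed through drug treatment of a liver cancer cell line. The genes were MET, AXL, MST1R, EPHA2, EPHA1, EPHB2, EPHB3, EPHB4, DDR1 and TYRO3, taken by symbol from the table of 20263 genes. All 10 were in the table, each in 1 row, and 8 of them averaged at least 1 CPM (read counts scaled to a common library size) over the libraries and were tested. EPHA1 and EPHB3 were under that level and are described by their reads. The cells were MHCC-97H, an established human hepatocellular carcinoma line with epithelioid cells. They were kept for 24 hours with DMSO, the solvent (4 libraries), or with lenvatinib, which blocks the kinases of VEGF and FGF receptors as well as KIT, RET and PDGFRA, at 40, 60, 80 or 100 µM (1 library per dose, 4 in all). All libraries come from this 1 line, and nothing in the labels says whether the DMSO libraries were separate cultures, so p-values reflect no more than how these libraries vary, and that variation may be technical.

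Receptor tyrosine kinases span the cell membrane and phosphorylate tyrosines of adaptor proteins when a ligand brings receptors together. MET binds hepatocyte growth factor (HGF), and MST1R (RON), its closest relative, binds macrophage-stimulating protein (MST1). AXL and TYRO3 belong to the TAM family, whose ligands are GAS6 and protein S (PROS1). EPHA and EPHB receptors bind ephrins, which are held on the surface of neighbouring cells, and DDR1 binds collagen. In hepatocytes MET serves growth and regeneration, and MET, AXL and EPHA2 are known from liver cancer as receptors that can carry growth signals when other kinases are inhibited.

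Libraries held between 10181973 and 37384578 counts. The 60 µM library was the smallest and had reads for 11076 genes, against 13290 to 14340 in the others. Libraries also differed in how levels followed the GC content of transcripts. The slope of a library's log2 deviation from the mean of all 8, per 10 percentage points of GC content, is called its GC slope here. It was 0.28, -0.50, -0.99 and -0.10 in DMSO libraries 1 to 4, and 0.67, 1.82, -0.58 and -0.60 at 40, 60, 80 and 100 µM. Its mean was -0.33 ± 0.55 over DMSO and 0.33 ± 1.16 over lenvatinib libraries (SD, n = 4 per arm), a difference within the spread (two-sided exact permutation test, p = 0.429). Of the markers of a hepatocyte, ALB (6 reads), AFP (2), APOA1 (10) and TF (4) had all their reads in the 60 µM library and TTR had 0 reads. Of 4 epithelial markers, the keratins KRT8 and KRT18 stood at 5982 ± 2356 and 3806 ± 1744 CPM in DMSO, with log2 fold changes of -0.87 ± 0.24 and -0.93 ± 0.25 with the GC slope that did not pass (edgeR adjusted p = 0.0913 and 0.0872). The adhesion genes EPCAM and CDH1 were near absent, with 125 and 232 reads in all, and CDH1 was at 1.38 ± 0.252 CPM in DMSO and 0.242 ± 0.176 CPM with lenvatinib, lower in every lenvatinib library. Of 9 markers of blood, endothelium and fibroblasts, PTPRC and CD3E were at 0 reads and LYZ had 4, all in the 60 µM library. The endothelial markers PECAM1, CDH5 and VWF had 4, 24 and 394 reads in all. Of the fibroblast markers, PDGFRB and DCN ran from 28.6 to 41.7 and from 10.0 to 21.3 CPM in DMSO. LUM, also of fibroblasts, had 87 reads in all. The summed level of the 9 ran from 52.4 to 59.9 CPM in DMSO and from 29.1 to 56.5 CPM with lenvatinib. HNF4A, a transcription factor of hepatocytes, fell from 8.42 ± 1.23 to 1.78 ± 1.11 CPM (log2 fold change -2.42 ± 0.40 with the GC slope, edgeR adjusted p = 0.0229). The part of these markers in the results was not tested.

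Levels are compared between genes as TPM, the deposited value scaled by transcript length and library. In DMSO the order was EPHA2 (106 ± 2.98), EPHB4 (97.8 ± 8.36), AXL (69.4 ± 10.7), TYRO3 (36.3 ± 4.17), MET (31.2 ± 33.3), DDR1 (29.5 ± 1.47), MST1R (25.2 ± 5.54) and EPHB2 (4.31 ± 0.919 TPM, SD, n = 4 each). EPHA2 and EPHB4 overlapped, as did TYRO3, DDR1 and MST1R, and MET ran from 7.68 to 80.2 TPM, across the ranges of AXL and of these 3. All DMSO values of EPHB4 lay above those of AXL, those of AXL above those of TYRO3, and those of MST1R above those of EPHB2. With lenvatinib EPHB4 came first, at 113 ± 24.1 TPM, and EPHA2 followed at 67.8 ± 3.63 TPM, with no overlap between them. DDR1 (45.8 ± 15.3) and AXL (44.4 ± 4.11 TPM) then overlapped, and TYRO3, at 29.7 to 53.5 TPM, overlapped both. DDR1 reached 68.3 TPM at 60 µM, within the EPHA2 range of 62.8 to 70.5 TPM.

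The comparison of lenvatinib with DMSO addresses the question of the series, how the transcriptome differs after treatment. It takes the 4 doses as 1 arm, so differences between doses count as spread in its SE and in the SD of the lenvatinib libraries. EPHA2, which had the highest mean TPM of the receptors in DMSO, fell by 0.75 ± 0.12 on the log2 scale (SE) once the GC slope of each library was taken into account (edgeR adjusted p = 0.0229). It alone of the 8 receptors tested was called there. AXL and MET had log2 fold changes of similar size, -0.74 ± 0.19 and -0.64 ± 0.15, but did not pass (edgeR adjusted p = 0.0762 and 0.0595). GAS6, the ligand of AXL and TYRO3, rose by 0.52 ± 0.11 (edgeR adjusted p = 0.0463). Without the GC slope no receptor was called, and 4 of the 8 had positive and 4 negative log2 fold changes. In a bulk library, a gene transcribed in fewer cells and less RNA of that gene per cell cannot be told apart.

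The edgeR fit with the GC slope called 386 of 11827 genes, 3.26%, and 1 receptor of 8. It called 211 genes lower, 1.78% of those tested, and 175 higher, 1.48%, with 1 receptor lower and 0 higher. At an unadjusted p under 0.05 the fit found 5 of the 8 receptors (MET, AXL, EPHA2, EPHB2 and TYRO3) and 2405 of the 11827 genes tested. The edgeR fit without the covariate called 0% of genes, 0 in all, with 523 genes and 0 of the receptors at an unadjusted p under 0.05. There DESeq2 called 94 genes and limma-voom 0, none of them a receptor of the list. The median log2 fold change of the 8 receptors was 0.07 without and -0.43 with the covariate, against -0.11 and -0.06 over all genes tested.

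**Figure D1:**
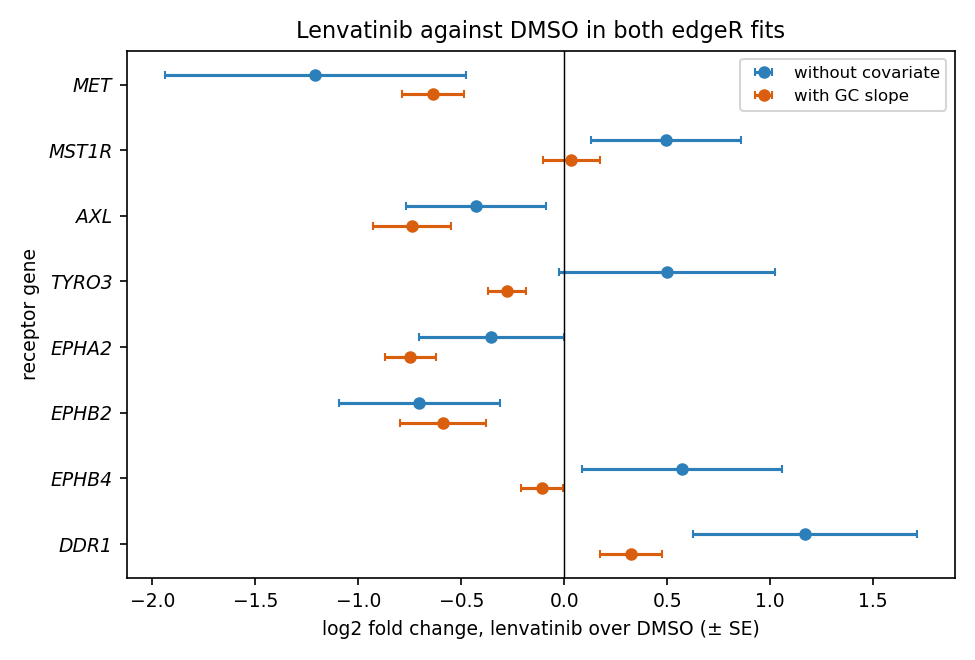
Log2 fold change of lenvatinib over DMSO (x axis, ± SE) for the 8 receptors tested (y axis), in the edgeR fit without a covariate and in the fit with the GC slope of each library. With the GC slope the SE bars are shorter, and EPHA2, AXL, MET and EPHB2 lie between -0.75 and -0.59.

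EPHA2 (ENSG00000142627, GRCh38 chromosome 1, 16124337 to 16156087, minus strand, protein coding) encodes an ephrin-A receptor found on epithelial cells. Its RefSeq promoter is shown because EPHA2 is the receptor that was called, beside those of AXL and MET, whose log2 fold changes were of like size. Each is the 250 bases before the start site (GRCh38.p14), chr1:16156070-16156319 on the minus strand for EPHA2, chr19:41218973-41219222 on the plus strand for AXL and chr7:116671946-116672195 on the plus strand for MET. Capitals mark matches, on either strand, to the Sp1 box GGGCGG and to the cyclic AMP response element TGACGTCA.
EPHA2: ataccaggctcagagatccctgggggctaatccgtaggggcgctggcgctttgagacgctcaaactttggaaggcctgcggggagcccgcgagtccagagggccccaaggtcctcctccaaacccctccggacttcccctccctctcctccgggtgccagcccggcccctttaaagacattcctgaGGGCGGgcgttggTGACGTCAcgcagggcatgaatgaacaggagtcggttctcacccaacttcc
AXL: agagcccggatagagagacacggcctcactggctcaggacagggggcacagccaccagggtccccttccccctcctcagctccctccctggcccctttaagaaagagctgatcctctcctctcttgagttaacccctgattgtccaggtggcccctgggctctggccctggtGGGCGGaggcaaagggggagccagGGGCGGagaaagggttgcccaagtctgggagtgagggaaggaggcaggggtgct
MET: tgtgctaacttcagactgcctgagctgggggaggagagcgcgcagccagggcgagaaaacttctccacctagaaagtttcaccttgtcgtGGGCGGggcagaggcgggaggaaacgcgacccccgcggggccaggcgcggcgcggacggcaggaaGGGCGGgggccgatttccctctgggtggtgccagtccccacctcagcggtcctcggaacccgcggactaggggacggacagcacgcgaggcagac

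The EPHA2 window held 1 Sp1 box and 1 cyclic AMP response element, and the windows of AXL and MET held 2 Sp1 boxes each. The AP-1 motif TGANTCA, also searched on both strands, was in none of the 3 windows. Of 35116 promoter windows of the same length, 42.6% held the Sp1 box, 1.6% the cyclic AMP response element and 6.6% the AP-1 motif. The motifs do not overlap each other here. The AXL window had 4 CpG dinucleotides, against 15 in that of EPHA2 and 24 in that of MET. A match is a match of letters and says nothing of a factor's binding.

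EPHA2 was measured at 297, 210, 169 and 251 CPM in DMSO 1 to 4, scaled by edgeR's trimmed mean of M values (TMM), and at 227, 259, 120 and 119 CPM at 40, 60, 80 and 100 µM. On this scale the arms overlapped, and 80 and 100 µM were the lowest of the 8 libraries. As CPM of the library total, EPHA2 stood at 254, 244, 224 and 246 in DMSO and at 176, 158, 154 and 152 with lenvatinib. On that scale every lenvatinib library lay below every DMSO library. Deposited TPM gave the same picture, 103 to 109 in DMSO and 62.8 to 70.5 with lenvatinib, a ratio of means of 0.639. The fold change without the covariate was -0.35 ± 0.35 with TMM scaling and -0.60 ± 0.13 with library totals only (edgeR adjusted p = 0.874 and 0.395). It was -0.75 and -0.63 with the GC slope under the same scalings, and both passed.

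Overlap of the arms was counted for all receptors on each scale. With TMM-scaled CPM, 1 of 8 receptors (EPHB2, lower) did not overlap, against 6.46% of genes tested (3.08% higher and 3.38% lower). With CPM of the library total there were 2 (AXL and EPHA2, lower), against 8.46% (4.96% higher and 3.49% lower). With deposited TPM there were 3 (AXL and EPHA2 lower, DDR1 higher), against 8.84% (4.84% higher and 4% lower). The scales thus name different receptors, and the TMM factors that set the first apart from the second ran from 0.61 at 60 µM to 1.33 in DMSO 3. Over all genes the median was -0.11 on the log2 scale with TMM scaling and -0.20 with library totals only, and with the GC slope -0.06 and 0.05.

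**Figure D2:**
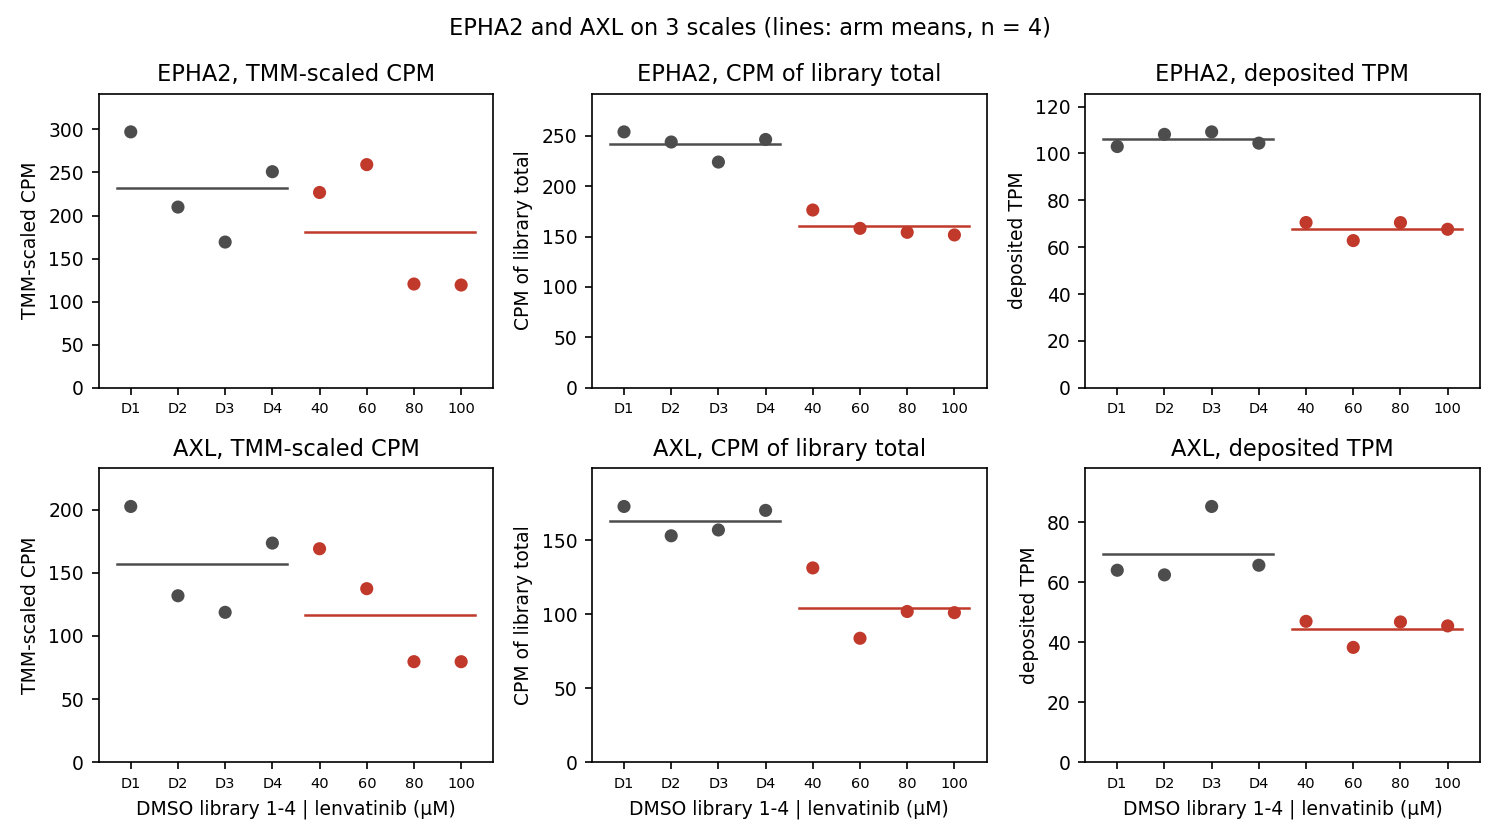
EPHA2 (top) and AXL (bottom) in each library (x axis, DMSO 1 to 4 in grey, lenvatinib dose in red) as TMM-scaled CPM, CPM of the library total and deposited TPM (y axes, from 0), with lines at the arm means (n = 4). The arms overlap on the first scale and are apart on the other 2, where EPHA2 lies at 103 to 109 TPM in DMSO and at 62.8 to 70.5 TPM with lenvatinib.

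The call of EPHA2 depended on single libraries, although its fold change moved little. Leaving out DMSO 1, DMSO 2, DMSO 4, 80 µM or 100 µM gave edgeR adjusted p = 0.103, 0.0762, 0.127, 0.200 and 0.176, with log2 fold changes between -0.75 and -0.71. Leaving out the 60 µM library, which stands apart in depth and GC slope, gave -0.70 ± 0.06 (edgeR adjusted p = 2.613e-04). The fit then called 2755 genes, 23.3%, and 4 of the 8 receptors, EPHA2, AXL, MET and TYRO3, all lower. With offsets for GC content and length in place of the GC slope, EPHA2 was at -0.70 ± 0.12 and did not pass (edgeR adjusted p = 0.0806).

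AXL (ENSG00000167601, chromosome 19, 41219203 to 41261766, plus strand, protein coding) encodes a TAM receptor that binds GAS6 and serves cell survival and migration. Its TMM-scaled level was 203, 132, 119 and 174 CPM in DMSO and 169, 137, 79.7 and 79.6 CPM at 40, 60, 80 and 100 µM. The libraries at 80 and 100 µM lay below all DMSO libraries, and those at 40 and 60 µM lay within the DMSO range. As CPM of the library total AXL ran from 153 to 173 in DMSO and from 83.9 to 131 with lenvatinib, without overlap. Its log2 fold change was -0.43 ± 0.34 without the covariate and -0.74 ± 0.19 with it, and neither passed. AXL passed, once the GC slope was in the fit, in 9 of 17 alternatives, among them DESeq2, limma-voom, both other scalings and the filter at 5 CPM. Its log2 fold change there ran from -0.89 to -0.42, and the adjusted p from 1.587e-05 to 0.516. Among these 9 was the fit with the titles' numbers as a block beside the GC slope (-0.72 ± 0.15, edgeR adjusted p = 0.0434).

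TYRO3 (ENSG00000092445, chromosome 15, 41557675 to 41583586, plus strand), the other TAM receptor here, stood at 223, 134, 93.6 and 178 CPM in the DMSO libraries and at 229, 449, 107 and 105 CPM in those with lenvatinib, TMM-scaled. The 60 µM library was the highest and the arms overlapped. The log2 fold change was 0.50 ± 0.53 without and -0.28 ± 0.09 with the GC slope, and neither was called (edgeR adjusted p = 0.874 and 0.149). Without 60 µM TYRO3 was at -0.09 ± 0.40 in the first fit, and at -0.25 ± 0.06 in the second, where it was called (edgeR adjusted p = 0.0219). AXL and TYRO3 have transcripts of like GC content, 53.9% and 53.1%, and the ratio of their read counts within a library does not depend on scaling. That ratio was 0.909, 0.983, 1.27 and 0.976 in DMSO and 0.740, 0.306, 0.746 and 0.756 at 40, 60, 80 and 100 µM. All 4 lenvatinib libraries lay below the DMSO libraries. The ratio may still follow the GC slope, with which the TMM-scaled levels of AXL and TYRO3 had Pearson r = 0.469 and 0.982. Among the DMSO libraries alone the ratio fell from 1.27 in DMSO 3 (GC slope -0.99) to 0.909 in DMSO 1 (GC slope 0.28).

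MERTK, the remaining TAM receptor, which clears apoptotic cells, had 8 reads in all. GAS6 (ENSG00000183087, chromosome 13, 113820558 to 113864067), whose protein binds AXL, TYRO3 and MERTK, stood at 39.5, 30.4, 22.7 and 37.3 CPM in the DMSO libraries and at 62.4, 98.8, 44.8 and 40.7 CPM in those with lenvatinib, TMM-scaled. Every lenvatinib library lay above every DMSO library, on this scale as in CPM of the library total (30.0 to 36.6 against 48.5 to 60.3) and in TPM (21.8 to 24.9 against 30.9 to 41.8). Its log2 fold change was 0.92 ± 0.35 without the covariate (edgeR adjusted p = 0.874) and 0.52 ± 0.11 with the GC slope (edgeR adjusted p = 0.0463). The call was lost in 9 of 17 alternatives, with values from 0.46 to 0.65 over all of them. Single libraries whose removal ended it were DMSO 1, 2, 3 and 4, 80 µM and 100 µM (edgeR adjusted p from 0.0716 to 0.303), while without 60 µM it was called at 0.54 ± 0.10 (edgeR adjusted p = 0.00450). PROS1, protein S, varied from 0 reads at 60 µM to 8.24 CPM in DMSO 3, and its log2 fold change was 0.06 ± 1.23 without and 0.83 ± 0.32 with the GC slope (edgeR adjusted p = 0.988 and 0.194).

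**Figure D3:**
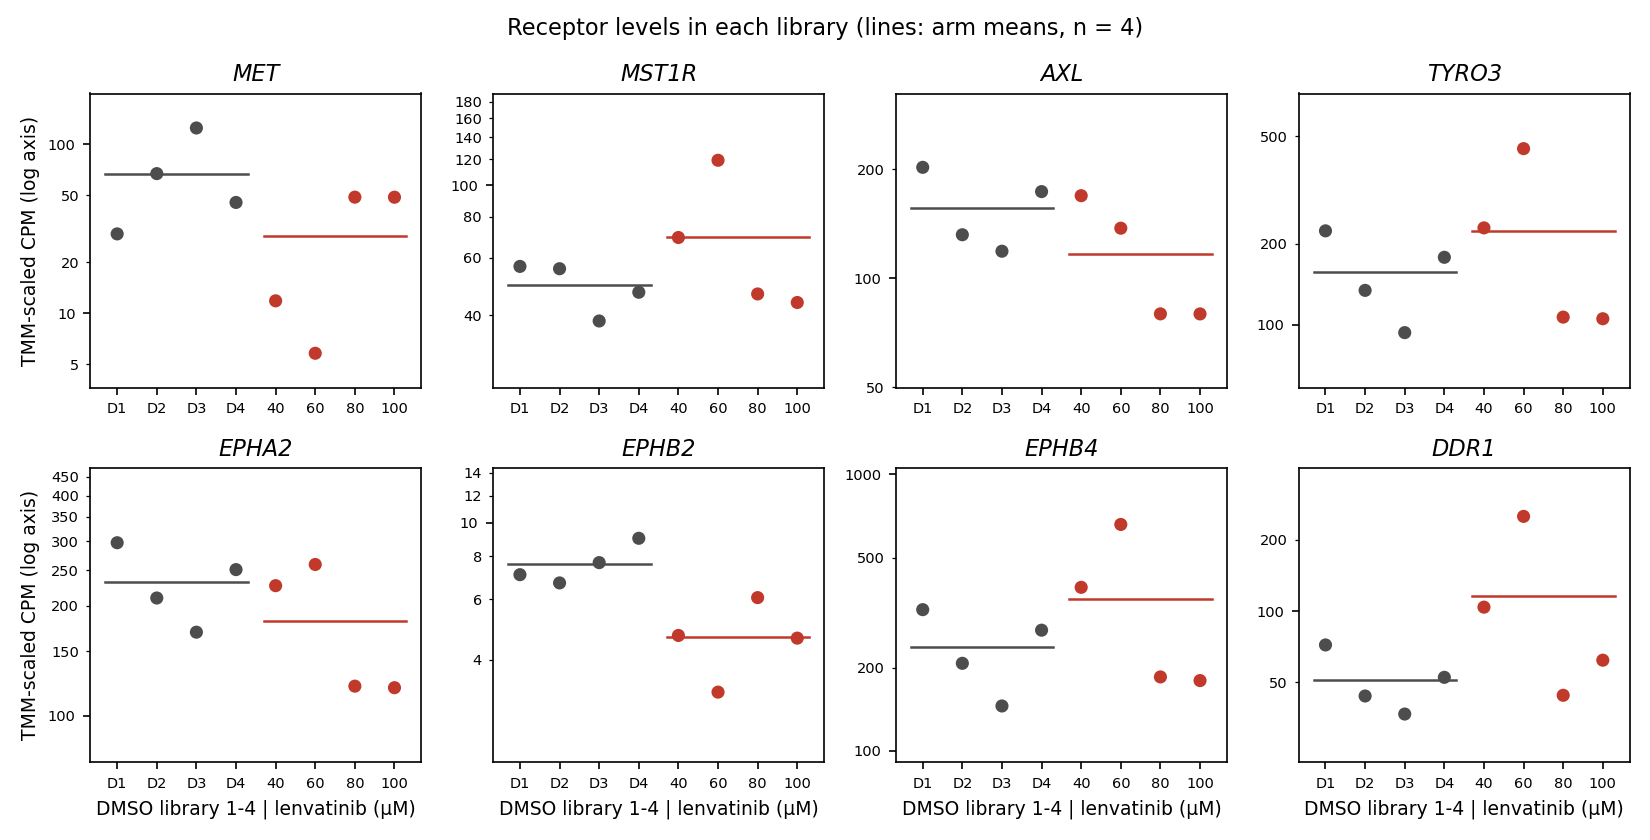
TMM-scaled level in CPM (y axis, log) of the 8 receptors tested in each library (x axis, DMSO 1 to 4 in grey, lenvatinib dose in µM in red), with lines at the arm means (n = 4). The 60 µM library is the highest for MST1R, TYRO3, EPHB4 and DDR1 and the lowest for MET and EPHB2.

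MET (ENSG00000105976, chromosome 7, 116672390 to 116798386, plus strand, protein coding), the HGF receptor, varied widely among the DMSO libraries, at 29.5, 67.1, 125 and 45.3 CPM, TMM-scaled. With lenvatinib it stood at 11.8, 5.79, 48.7 and 48.6 CPM at 40, 60, 80 and 100 µM. The libraries at 40 and 60 µM lay below all DMSO libraries, and those at 80 and 100 µM lay within their range. MET has the lowest transcript GC content of the receptors, 42.4%, and its log2 level followed the GC slope of the 8 libraries with Pearson r = -0.968, a description over libraries that include both arms. The log2 fold change was -1.21 ± 0.73 without the covariate and -0.64 ± 0.15 with it (edgeR adjusted p = 0.874 and 0.0595). MET passed in 5 of 17 alternatives to the fit with the GC slope, namely DESeq2, limma-voom, without 40 µM, without 60 µM and only 80 and 100 µM, with log2 fold changes from -0.70 to -0.52 over the 17. DMSO 2 has the GC slope nearest to those of 80 and 100 µM, and against its 67.1 CPM the levels at these doses had log2 ratios of -0.46 and -0.46.

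MST1R (ENSG00000164078, chromosome 3, 49887002 to 49903873, minus strand), which encodes RON, was measured at 56.4, 55.5, 38.4 and 47.0 CPM in the DMSO libraries and at 69.2, 119, 46.5 and 43.8 CPM in those with lenvatinib, TMM-scaled. The arms overlapped, and on this scale 60 µM was far above the rest. As CPM of the library total the 60 µM library was at 72.7, against 64.5 in DMSO 2. In TPM it was at 30.1, below DMSO 2 (31.0) and 80 µM (30.2). For MST1R the log2 fold change was 0.49 ± 0.36 without and 0.03 ± 0.14 with the GC slope, and neither passed (edgeR adjusted p = 0.874 and 0.927). The first of these was 0.12 ± 0.24 without the 60 µM library. HGF, the ligand of MET, had 10 reads, all in DMSO 4. MST1, the ligand of RON, averaged 0.877 ± 0.383 CPM over DMSO libraries and 1.57 ± 0.468 CPM over lenvatinib libraries, and its log2 fold change with the GC slope was 1.10 ± 0.36 (edgeR adjusted p = 0.137).

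**Figure D4:**
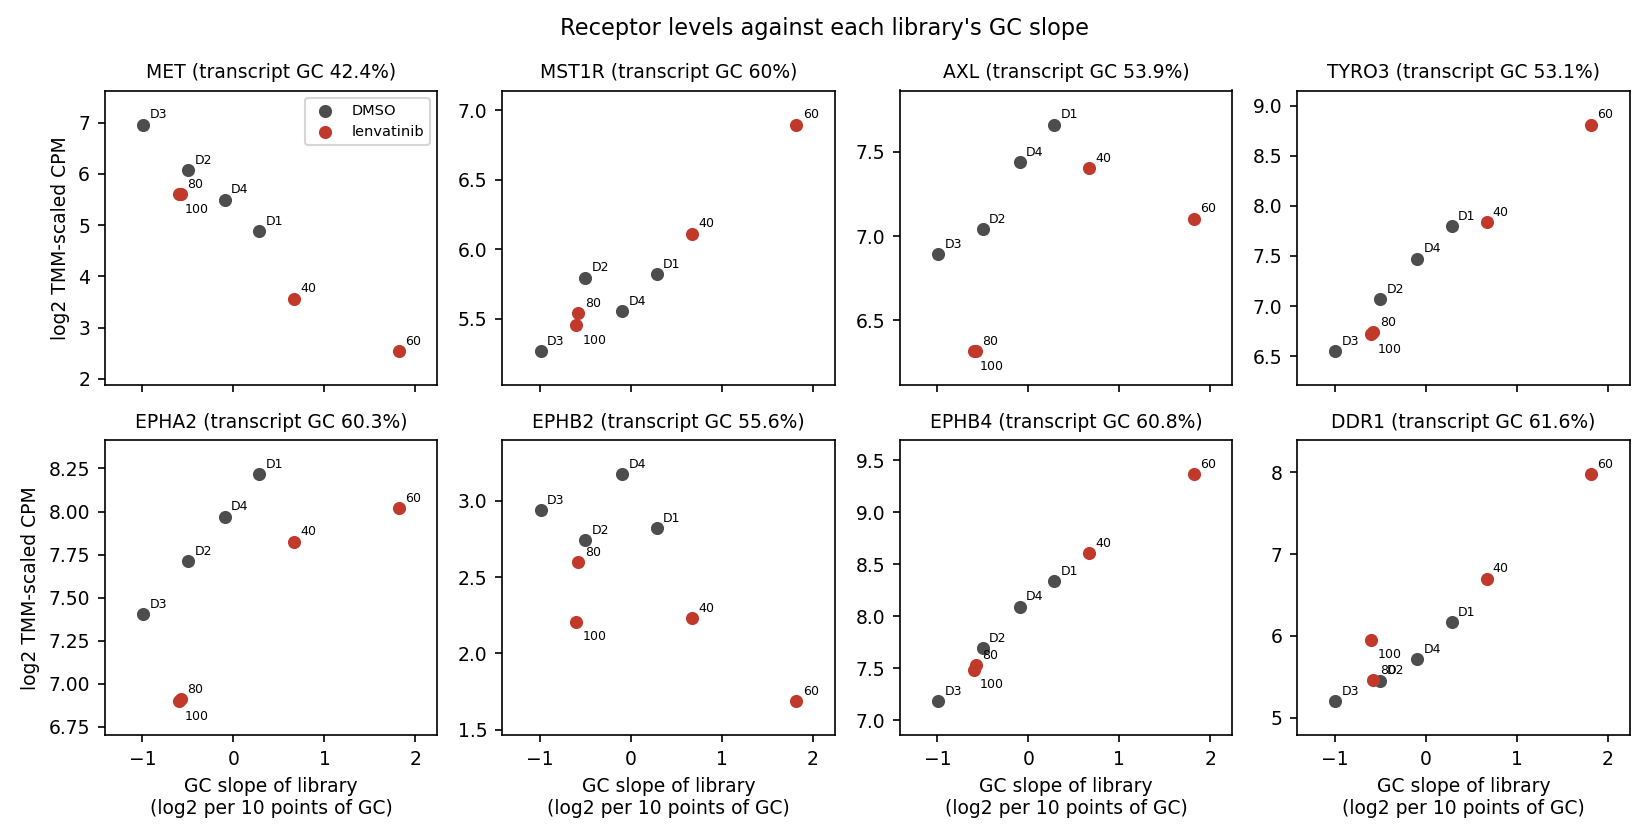
Log2 TMM-scaled level (y axis) of each receptor against the GC slope of the library (x axis), DMSO libraries in grey (D1 to D4) and lenvatinib libraries in red (dose in µM). MET goes down along the axis and MST1R, TYRO3, EPHB4 and DDR1 climb along it on this scale. For EPHA2 and AXL the libraries at 80 and 100 µM lie under DMSO 2, the nearest in GC slope (log2 ratios from -0.815 to -0.727). At these doses MET, MST1R, TYRO3, EPHB2 and EPHB4 also lie under DMSO 2, by less (-0.533 to -0.142). DDR1 lies above it (0.01 and 0.503). The libraries at 40 and 60 µM lie above the DMSO range of GC slopes.

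Over the 8 libraries the TMM-scaled levels of EPHB4, TYRO3, DDR1 and MST1R had Pearson r = 0.993, 0.982, 0.967 and 0.960 with the GC slope. With CPM of the library total these were 0.985, 0.964, 0.856 and 0.432, so the value for MST1R rests on the scaling. For EPHA2 and AXL r was 0.630 and 0.469 with TMM scaling and turned to -0.247 and -0.408 with the library total. EPHB2 had -0.677 and -0.925, and MET -0.968 and -0.982. The points share libraries and the GC slope was computed from the same libraries, so these values only describe.

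The EPHB receptors bind transmembrane ephrins and guide cell sorting and vessel growth. EPHB4 (ENSG00000196411, chromosome 7, 100802565 to 100827521, minus strand), known for its part in vein formation, stood at 324, 207, 145 and 273 CPM in the DMSO libraries and at 390, 659, 185 and 179 CPM in those with lenvatinib, TMM-scaled. The arms overlapped. EPHB4 had a log2 fold change of 0.57 ± 0.49 without and -0.11 ± 0.10 with the GC slope, and neither was called (edgeR adjusted p = 0.874 and 0.605). Without the 60 µM library the first of these was 0.09 ± 0.39. EPHB4 overlaps SLC12A9 on the opposite strand, and antisense genes lie at AXL, MST1R, EPHA2 and EPHB2. Reads of such partners cannot be told apart here, since whether counting used strand is not given in the sources used here. EPHA2 and EPHB4 have transcripts of 60.3% and 60.8% GC. Their count ratio was 0.917, 1.01, 1.17 and 0.919 in DMSO and 0.581, 0.393, 0.652 and 0.665 with lenvatinib. The arms were apart, with means of 1.00 ± 0.117 and 0.573 ± 0.125 (SD, n = 4 each).

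EPHB2 (ENSG00000133216, chromosome 1, 22710839 to 22921500, plus strand), known from the sorting of cells in the gut epithelium, was low, at 7.07, 6.69, 7.66 and 9.02 CPM in the DMSO libraries and at 4.70, 3.22, 6.06 and 4.62 CPM in those with lenvatinib, TMM-scaled. All lenvatinib libraries lay below the DMSO libraries on this scale. As CPM of the library total the arms overlapped, since 80 µM (7.76) lay above DMSO 1 (6.04). For EPHB2 the log2 fold change was -0.70 ± 0.39 without and -0.59 ± 0.21 with the GC slope (edgeR adjusted p = 0.874 and 0.166). The 60 µM library held 20 reads of EPHB2.

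EPHB3 (ENSG00000182580, chromosome 3, 184561784 to 184582409) had 2, 2, 4 and 10 reads in DMSO 1 to 4 and 0 reads in each lenvatinib library. Against the 3 reads that a count of 0 allows over the 4 lenvatinib libraries together, its DMSO level per library total was 5.24-fold higher. Without DMSO 4, which holds 10 of its 18 reads, that level was 3.17-fold higher. The 3 reads cover counting error in the lenvatinib libraries only. Neither counting error of the few DMSO reads nor variation between libraries is covered, so these folds are not lower limits. EPHA1 (ENSG00000146904, chromosome 7, 143391112 to 143408892) had 2 reads, both in DMSO 4, and 0 with lenvatinib, so both arms are at or under the limit. Per library, 3 reads correspond to between 0.0802 and 0.295 CPM.

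DDR1 (ENSG00000204580, chromosome 6, 30876421 to 30900156, plus strand), a collagen receptor of epithelial cells, was measured at 71.9, 43.8, 36.7 and 52.5 CPM in the DMSO libraries and at 104, 251, 44.1 and 62.0 CPM in those with lenvatinib, TMM-scaled. The arms overlapped through 80 and 100 µM. In deposited TPM they were apart, at 28.2 to 31.5 in DMSO and 34.6 to 68.3 with lenvatinib. DDR1 had the largest positive log2 fold change of the receptors, 1.17 ± 0.55 without and 0.32 ± 0.15 with the GC slope, and neither passed (edgeR adjusted p = 0.874 and 0.277). Single libraries moved both values: without 60 µM the first was 0.46 ± 0.35 (with only 80 and 100 µM, 0.08 ± 0.32), and without 100 µM the second was 0.14 ± 0.17. DDR2, the related collagen receptor of mesenchymal cells, had 85 reads in all.

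**Figure D5:**
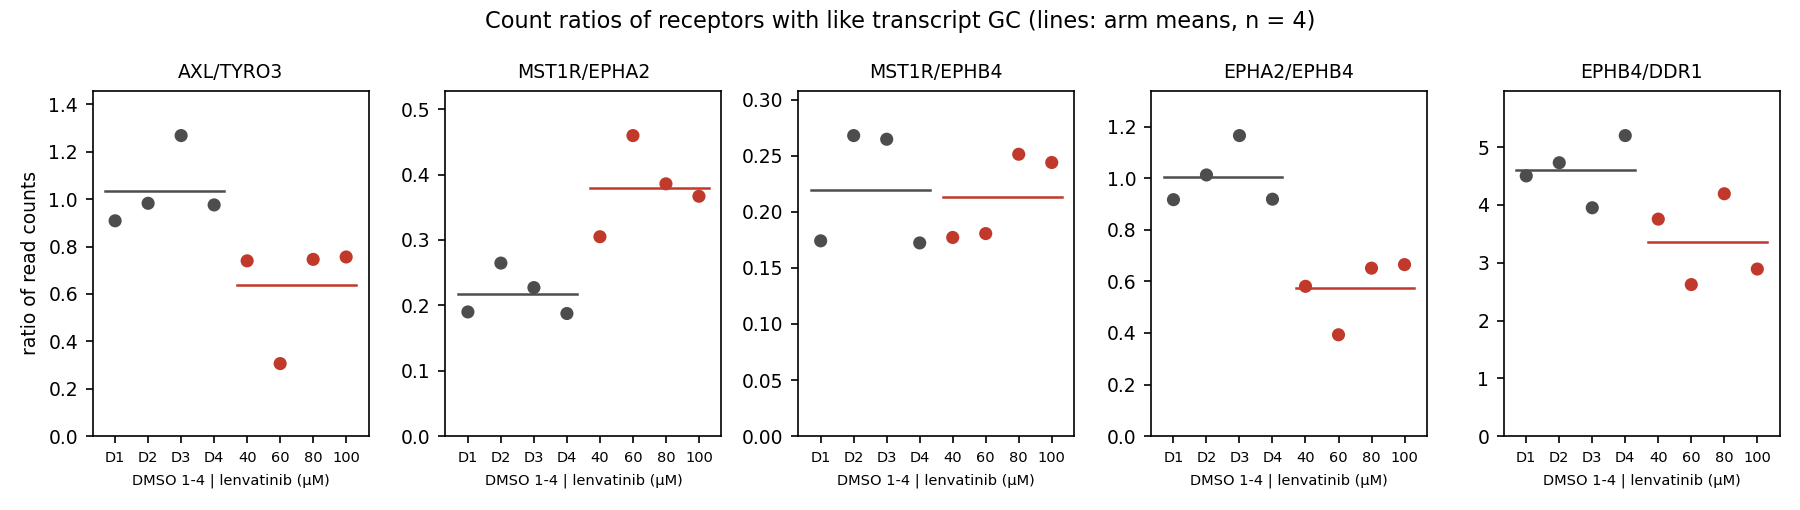
Ratio of read counts (y axis, from 0) in each library (x axis, DMSO 1 to 4 in grey, lenvatinib dose in µM in red) for the 5 pairs of receptors whose transcript GC content lies within 1 percentage point, with lines at the arm means (n = 4). The arms are apart for AXL/TYRO3, MST1R/EPHA2 and EPHA2/EPHB4 and overlap for MST1R/EPHB4 and EPHB4/DDR1.

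Ratios were taken for every pair of receptors tested whose transcript GC content lies within 1 percentage point, 5 pairs in all, a measure chosen after the data had been seen and given with no test. The arms did not overlap for 3 of them, AXL/TYRO3, EPHA2/EPHB4 and MST1R/EPHA2. Over all 4624684 such pairs of genes tested the share was 11.1%. MST1R/EPHA2 was 0.190, 0.265, 0.227 and 0.187 in DMSO and 0.305, 0.460, 0.386 and 0.367 with lenvatinib. MST1R/EPHB4, a pair without EPHA2, had means of 0.220 ± 0.0538 and 0.213 ± 0.0399 (SD, n = 4 each). EPHB4/DDR1 had means of 4.60 ± 0.519 and 3.37 ± 0.734, with overlap. Each of the 3 pairs that were apart holds EPHA2 or AXL. A ratio shows that its 2 genes changed unequally, not that either stayed at its level. Like GC content does not free a ratio of the GC slope. Among the DMSO libraries alone AXL/TYRO3 and EPHA2/EPHB4 were highest in DMSO 3, which has the lowest GC slope, and lowest in DMSO 1, which has the highest.

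Each dose was also set against the same 4 DMSO libraries, on the assumption that a lone library varies like those of DMSO. The comparisons share these controls. The edgeR fit called 0 of the 8 receptors and 0% of genes at 40, 80 and 100 µM, with 1019, 336 and 261 genes at an unadjusted p under 0.05. At 60 µM it called 3 of the 8, MET (log2 fold change -3.53 ± 1.03, edgeR adjusted p = 0.0466), MST1R (1.27 ± 0.31, adjusted p = 0.0335) and DDR1 (2.30 ± 0.38, adjusted p = 0.0267). There 37.2% of all genes were called, 11.9% higher and 25.3% lower, so the receptors' share is near the background. With library totals only, MET (-4.47 ± 1.43, edgeR adjusted p = 0.0667) and MST1R (0.47 ± 0.27, adjusted p = 0.191) did not pass, and AXL (-0.96 ± 0.20, adjusted p = 0.0381) and DDR1 did. Leaving out DMSO 2 or DMSO 4 left 0 receptors and 0 genes called at 60 µM, and leaving out DMSO 1 or DMSO 3 gave 5 receptors, with EPHB4 and TYRO3 added, among 6698 and 6117 genes.

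The GC slope was also added to the fit of single doses. Each test there sets 1 library against a spread with 2 residual degrees of freedom, all from DMSO, so it compares that library with the DMSO libraries and not the dose. The libraries at 40 and 60 µM lie above the DMSO range of GC slopes, and their values are extrapolated. EPHA2 was at -0.75 ± 0.09 on the log2 scale at 80 and at 100 µM (edgeR adjusted p = 0.00561 and 0.00821), against -0.94 ± 0.44 and -0.96 ± 0.44 without the GC slope. At 40 and 60 µM EPHA2 was at -0.63 ± 0.11 and -1.18 ± 0.18 (edgeR adjusted p = 0.0468 and 0.00410), but at -0.03 ± 0.41 and 0.16 ± 0.41 without the GC slope, so these values rest on it. AXL was at -0.49 ± 0.14, -1.52 ± 0.22, -0.79 ± 0.11 and -0.77 ± 0.11 from the lowest to the highest dose (edgeR adjusted p = 0.106, 0.00387, 0.0103 and 0.0143). MET was at -0.65 ± 0.12 and -0.70 ± 0.12 at 80 and 100 µM (edgeR adjusted p = 0.0227 and 0.0258), with -0.68 ± 0.16 at 40 µM and 0.15 ± 0.28 at 60 µM, neither of them called. DDR1 was at 0.75 ± 0.26 at 60 µM (edgeR adjusted p = 0.0617) and 0.52 ± 0.12 at 100 µM (adjusted p = 0.0467), and the difference between these libraries was not tested. Of all genes, these fits called 1.78% for the dose of 40 µM, 34.7% for 60 µM, 11.4% for 80 µM and 6.19% for 100 µM.

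No receptor had a slope with dose within the lenvatinib arm that passed, and edgeR called 0% of genes there, with 875 genes and 1 receptor, AXL, at an unadjusted p under 0.05. The slopes per 20 µM ran from -0.61 ± 0.32 for TYRO3 to 0.86 ± 0.38 for MET. AXL had -0.40 ± 0.17 (edgeR adjusted p = 0.295). With the GC slope as a further term edgeR again called 0 genes, and the slopes ran from -0.22 ± 0.12 for AXL to 0.13 ± 0.11 for DDR1.

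Of 11 other receptors of these families, 1 was tested, EPHA7 (1.16 ± 1.04 CPM in DMSO and 1.25 ± 1.44 CPM with lenvatinib, not called), and 6 had 0 reads in every library. Of 17 ligands, 13 were tested, and 1 rose (GAS6) and 0 fell with the GC slope, where 1.48% of all genes were called higher and 1.78% lower, with a median log2 fold change of 0.20 against -0.06 over all genes tested. Among the uncalled ligands, the collagen chain COL1A1 was measured at 26.8 ± 2.37 CPM in DMSO and 35.7 ± 4.92 CPM with lenvatinib, and its log2 fold change was 0.33 ± 0.13 (edgeR adjusted p = 0.205).

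Of 8 genes that activate ligands or shed receptors, 5 were tested and 0 called. ADAM10, a membrane protease that sheds ephrins and receptors, was at 20.3 ± 15.8 CPM in DMSO and 9.90 ± 10.2 CPM with lenvatinib, with 0 reads at 60 µM. Its log2 fold change was -0.47 ± 0.25 with the GC slope. SPINT2, an inhibitor of the proteases that activate HGF, had -0.50 ± 0.31, and ADAM17 and the protease matriptase, ST14, had 0.17 ± 0.24 and -0.10 ± 0.18. Of 22 coreceptors, adaptors and negative regulators, 21 were tested and 0 called, with a median of -0.06. The smallest p-values belonged to the adaptor GRB2 (-0.99 ± 0.31), the kinase SRC (-0.44 ± 0.14), the adaptor SHC1 (-0.34 ± 0.14) and the MET coreceptor CD44 (-0.23 ± 0.13), with edgeR adjusted p from 0.122 to 0.358. GRB2, which links receptors to RAS, stood at 106 ± 36.1 CPM in DMSO and 51.9 ± 5.78 CPM with lenvatinib. The arms overlapped, since DMSO 1 was at 52.0 CPM, within the lenvatinib range of 46.9 to 59.1 CPM. DMSO 2, 3 and 4 were at 122, 121 and 129 CPM.

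The genes whose log2 level was most like that of each receptor over the 8 libraries were named by Pearson's r, as a description. For MET these were ZMIZ1, HNRNPM and RABEP1 (r = 0.998, 0.997 and 0.997), and for AXL SLC5A5, FSTL3 and ANKH (0.989, 0.986 and 0.986). For EPHA2 they were CLIC3, MFAP2 and HBA1 (0.997, 0.995 and 0.994). After the GC slope was taken out of every gene they were TAX1BP3, FOXK1 and ZMIZ1 for MET (0.989, 0.983 and 0.982), PTPRF, NPAS2 and PLEK2 for AXL (0.993 each) and SERPINF2, HBA1 and FAM83G for EPHA2 (0.999, 0.998 and 0.997). The points share libraries, depth and GC slope.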

How the data were processed

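Bulk RNA-seq of 8 libraries was used, 4 with DMSO and 1 at each of 4 lenvatinib doses. FastQC, HISAT2, StringTie, bedtools and the build GRCh38 are named in the submitters' processing notes. The sources used here do not give versions, the annotation or the use of strand. The deposited table holds whole-number read counts per gene, with TPM and FPKM values that the authors deposited beside them (FPKM was not used). Per the labels, groups follow the treatment of each sample.

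Counts were tested with edgeR 4.0.16 (quasi-likelihood, robust, TMM) in R 4.3.3 on 11827 genes that averaged 1 CPM or more, which hold 99.9% of counts, with Benjamini-Hochberg adjustment over all of them and a threshold of 0.05. The fits were lenvatinib against DMSO without a covariate (6 residual degrees of freedom) and with the GC slope (5), a dose slope per 20 µM (5) and each dose against DMSO (3). The GC slope used the GC content of the longest transcript of each gene, and 4 tested genes had none. Standard errors are the fold change over the square root of F. Totals ran from 10181973 to 37384578 counts, and 3 counts were taken as what a count of 0 allows.

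Alternatives were DESeq2 1.42.0, limma-voom 3.58.1, other scalings and filters, a block on the number in the titles, each library left out, the highest 2 doses alone, and offsets for GC content and length. The CPM and TPM scales for overlap and the count ratios were added after seeing the data. The receptors and gene lists were chosen with earlier results of these data known. Besides the receptors, up to 4 genes of each list with the smallest p in the fit with the GC slope were named, and HGF, GAS6, MST1, PROS1, MERTK and DDR2 in any case; for MET, AXL and EPHA2 the 3 genes with the highest r were named. The fits were tested on simulated data with 200 of 11827 genes changed: with a GC trend in the simulation, the fit of lenvatinib against DMSO with the GC slope recovered 96 of 100 genes changed by 1 on the log2 scale and 100 of 100 changed by 2, with 6 false calls, while the fit without the covariate recovered 0 of 100 at either size. With no GC trend in the simulation, the fit without the covariate recovered 98 of 100 genes changed by 1 and 100 of 100 changed by 2, with 9 false calls. The fit with the GC slope then recovered 97 and 100 of 100, with 8 false calls. The simulated trend was linear in GC content, took the libraries' own GC slopes and came with the same change in every lenvatinib library. The fit with the GC slope assumes that form, so its recovery was set in advance and does not show how it fares on these data. Where a trend of that form is present, a count of 0 from the fit without the covariate says little. Whether the data hold a trend of just that form was not tested.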

Additional observations from a re-analysis of the deposited data

Results flagged for a closer look

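Of 20 groups of 4 libraries, those with 0 reads throughout, EPHA1 and EPHB3 with lenvatinib, could not be checked. Among the rest, 2 held a library far from the other 3. For normally distributed values chance alone does this in about 1 group in 20, a rate that does not hold for counts of a few reads. With reads in 1 library only, as for EPHA1, the flag follows by itself. EPHA1 stood at 0.0595 CPM (TMM-scaled) in DMSO 4, from 2 reads, and at 0 in the other DMSO libraries. EPHB3 stood at 0.298 CPM in DMSO 4, from 10 reads, against 0.0562 to 0.0961 CPM in the other 3. DMSO 4 also held all 10 reads of HGF.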

How the results depend on the processing

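With the GC slope, EPHA2, AXL, MET, EPHB2, DDR1 and GAS6 kept their direction in all 17 alternatives. The number of the 8 receptors called, 1 in the fit with the GC slope, was 5 with DESeq2, 3 with limma-voom, 2 each with DESeq2 size factors, library totals only and a 5 CPM filter, 3 with only 80 and 100 µM, 0 with GC and length offsets, and 0 to 4 with each library left out. It was 0 in every alternative without the covariate. For single doses the GC slope gave 1 receptor at 40 µM, 3 at 80 µM and 4 at 100 µM, where none was called without it; at 60 µM the count, 3 (MET, MST1R and DDR1), was 5 with a 5 CPM filter, 2 with library totals only (AXL and DDR1), 2 with the GC slope (AXL and EPHA2, all of the 3 lost) and 0 to 5 with a DMSO library left out. Counts of receptors called are to be read against those of all genes. With the GC slope 386 of 11827 genes (3.26%) were called, and from 0 without 80 µM to 2755 (23.3%) without 60 µM. Of the same 11827 genes, DESeq2 called 2038, limma-voom 830, DESeq2 size factors 1015 and totals only 674. Only 80 and 100 µM gave 2468 of them, and offsets gave 18. The filters changed the genes tested, with 543 of 9669 called at 5 CPM and 254 of 15588 with no filter. The cause of these differences was not tested.

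Directions turned as follows. Without the covariate, TYRO3 was at -0.094 without 60 µM, and with only 80 and 100 µM MST1R was at -0.10, EPHB4 at -0.35 and TYRO3 at -0.53. With the GC slope, EPHB4 was at 0.01 with library totals and MST1R at -0.025 without DMSO 1 and -0.01 without DMSO 4, and offsets gave EPHB4 0.13 and TYRO3 0.73. The dose slope with the GC slope added was -0.082 for EPHB2, 0.13 for DDR1 and 0.014 for TYRO3. At 40 µM AXL was at -0.31 with totals, -0.49 with the GC slope and between -0.002 without DMSO 3 and 0.258 without DMSO 1, EPHA2 between -0.156 without DMSO 3 and 0.11 without DMSO 1, and with the GC slope EPHB4 at -0.14 and TYRO3 at -0.37. At 60 µM EPHA2 was at -0.61 with totals and -1.18 with the GC slope, which also gave MET 0.15, EPHB4 -0.44 and TYRO3 -0.53. At 80 µM totals gave MST1R 0.18 and DDR1 0.088, the GC slope gave 0.008 and 0.012, and MET ran from -0.701 without DMSO 1 to 0.041 without DMSO 3. At 100 µM MST1R was at 0.085 with totals and MET ran from -0.702 without DMSO 1 to 0.04 without DMSO 3.

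The sample titles share the numbers 1 to 4 between arms. Deviations of same-numbered libraries from their arm means correlated at 0.627, -0.464, 0.843 and -0.608, and no DMSO library correlated best with its own number. Those deviations also hold differences in GC slope and dose, so the check cannot decide whether the numbers pair the libraries. With the replicate block, 0 receptors and 0 genes were called without the covariate, and 2 receptors (AXL and EPHA2) and 232 genes with the GC slope. Depth limits EPHA1 and EPHB3 in every library and EPHB2 at 60 µM. The dose fits rest on 1 library per dose.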
